A study of Dorcoceras hygrometricum with 9 samples.

Results

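Boea hygrometrica is a resurrection plant that survives almost complete drying of its leaves. The leaf genes described here were taken by description to encode proteins of its cytosolic ribosome, though 6 have no KEGG name of that kind. They were chosen by the best database match given in the deposited files: the description had to read "ribosomal protein" or "ribosomal subunit protein", with no word for the chloroplast, the mitochondrion, the plastid, the 30S or 50S subunit, a kinase, a transferase or a methylated form. A minimum of 60 reads over the 9 libraries was set. This gave 104 genes out of 24182 with a read, and 3 further genes matched the words but stayed under the minimum, the highest of them with 41 reads against 62 for the lowest gene kept.

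Leaves of potted plants were sampled in 3 water states, with 3 biological replicates each: hydrated (titled HD), moderately dehydrated at 70% relative water content (RWC), and desiccated at 10% RWC. RWC is the water a leaf holds relative to what it holds when fully swollen. How many plants stand behind a replicate, and whether dried plants were sampled at another age than hydrated ones, is not stated by the labels, so p-values measure the spread between these samples. The labels give no line, allele or agent that separates the groups.

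The cytosolic ribosome makes the proteins of the cell from messenger RNA. Its small (40S) subunit reads the message, and its large (60S) subunit joins the amino acids. Each subunit is a core of ribosomal RNA dressed with many small proteins, most of which are needed in a single copy per ribosome. In plants nearly every ribosomal protein is encoded by several gene copies, and ribosome making is a large cost for a growing leaf.

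Of the 104 genes, 98 also carried a KEGG name of a cytosolic ribosomal protein, 60 for the large and 38 for the small subunit. These fell into 54 protein families, 30 of the large and 24 of the small subunit, and 31 families had several copies, which together held 75 genes. Another 3 genes carried KEGG names of bacterial-type proteins (Bhs576_011V1.1 for L2, Bhs129_019V1.1 for L36 and Bhs685_022V1.1 for S9), and 3 carried none (Bhs4693_003V1.1, described as L34; Bhs183_027V1.1, as L51; Bhs80_006V1.1, as L23 family). All these names are those of the best match, and the best-matching species were plants wherever one was given. The longest gene models had coding lengths of 2160 bases (Bhs4693_003V1.1) and 1983 bases (Bhs8_013V1.1, described as L18a), beside a median of 501 bases over the tested genes of the group.

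The 9 libraries held on average 7027304 (hydrated), 7235740 (70% RWC) and 7268468 (10% RWC) reads aligned uniquely to genes, and all 104 genes had reads in every library. The labelled tissue showed in the mesophyll list (Rubisco small subunit, Rubisco activase and chlorophyll a-b binding proteins), whose 15 genes summed to 61149 to 80197 CPM (counts scaled to a common library size) in hydrated leaves, 6624 to 8577 at 70% RWC and 1978 to 2302 at 10% RWC. The list went both ways: 11 of its genes were lower and 4 higher in each comparison, and 2 had no read in hydrated leaves. The part of this change in the results on ribosomal protein genes was not tested. Replicate 1 stood apart from replicates 2 and 3 in each state: in a test of that difference, 18 of the 103 tested ribosomal protein genes were higher and 18 lower in replicate 1, or 35.0% against 20.4% of all tested genes, with log2 differences from -0.59 to 0.41. With replicates 2 and 3 alone the counts below were 8 higher and 58 lower at 70% RWC and 15 and 75 at 10% RWC. From 70% to 10% RWC they were 18 and 57. The shares of all tested genes called in that fit were not counted.

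Reads of the ribosomal protein genes fell in both steps of drying. Their summed level was 8988, 8756 and 8852 CPM in the hydrated replicates, 7590, 7446 and 7368 CPM at 70% RWC, and 6577, 6608 and 6542 CPM at 10% RWC. The 3 states did not overlap, and each step was larger than the spread within a state (means 8865 ± 117, 7468 ± 113 and 6576 ± 32.9, SD, n = 3). As a plain share of all reads the genes took 0.911% ± 0.0319, 0.716% ± 0.0249 and 0.665% ± 0.00591 (SD, n = 3). Values of a leaf are relative to its other RNA, so fewer cells of a type and less RNA per cell cannot be told apart.

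**Figure D1:**
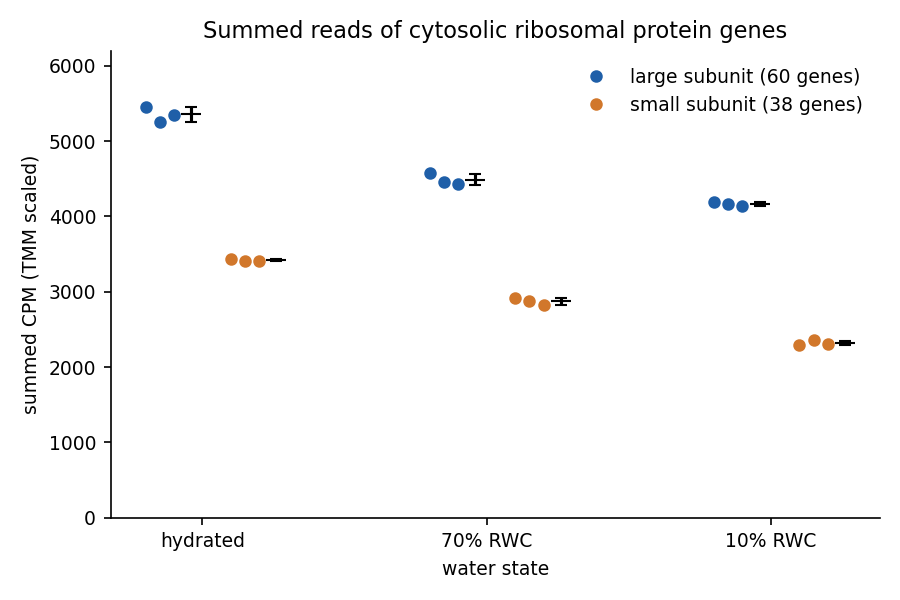
Summed CPM of the large subunit genes (60, blue) and small subunit genes (38, orange) in each library (points), with mean and SD of the 3 replicates (black bars), by water state. Both sums fall from hydrated to 70% RWC, and the small subunit falls further at 10% RWC, from 2873 to 2323 CPM, than the large subunit, from 4488 to 4161 CPM.

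At 70% RWC, 51 of the 103 tested genes were lower than in hydrated leaves and 7 were higher, by edgeR's quasi-likelihood test at an adjusted p under 0.05. Of all 14585 tested genes, 35.9% were lower and 34.6% higher in that comparison, beside 49.5% and 6.80% of the ribosomal protein genes. The changes were small: the median log2 fold change was -0.25 beside -0.01 over all tested genes, 87 genes stayed within 1.5-fold, and 1 gene was at least 2-fold lower, where 20.5% of all genes were. Replicates did not overlap in 48 of the lower and 5 of the higher genes, beside 35.0% and 33.5% of all tested genes. Without hydrated replicate 2, hydrated replicate 3 or 70% RWC replicate 3, 4 genes rather than 7 were called higher. The shares of all tested genes called in those fits were not counted.

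At 10% RWC, 71 genes were lower than in hydrated leaves and 11 were higher, beside 41.5% lower and 42.4% higher of all tested genes, 83.9% in either direction. The groups of 3 replicates did not overlap in 68 of the lower genes and in all 11 higher ones (40.7% and 41.5% of all tested genes). The median log2 fold change was -0.56 (0.01 over all tested genes), and 44 genes stayed within 1.5-fold. At least 2-fold lower were 29 genes, or 28.2% against 29.7% of all genes, a share near the background. From 70% to 10% RWC, 57 genes were lower and 15 higher, beside 39.6% lower and 37.1% higher of all tested genes, with no overlap of replicates in 55 and 15 (38.7% and 36.3%) and a median log2 fold change of -0.29 (-0.05 over all tested genes). Without 70% RWC replicate 1 that median was -0.43, while the median over all tested genes also moved by -0.11.

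**Figure D2:**
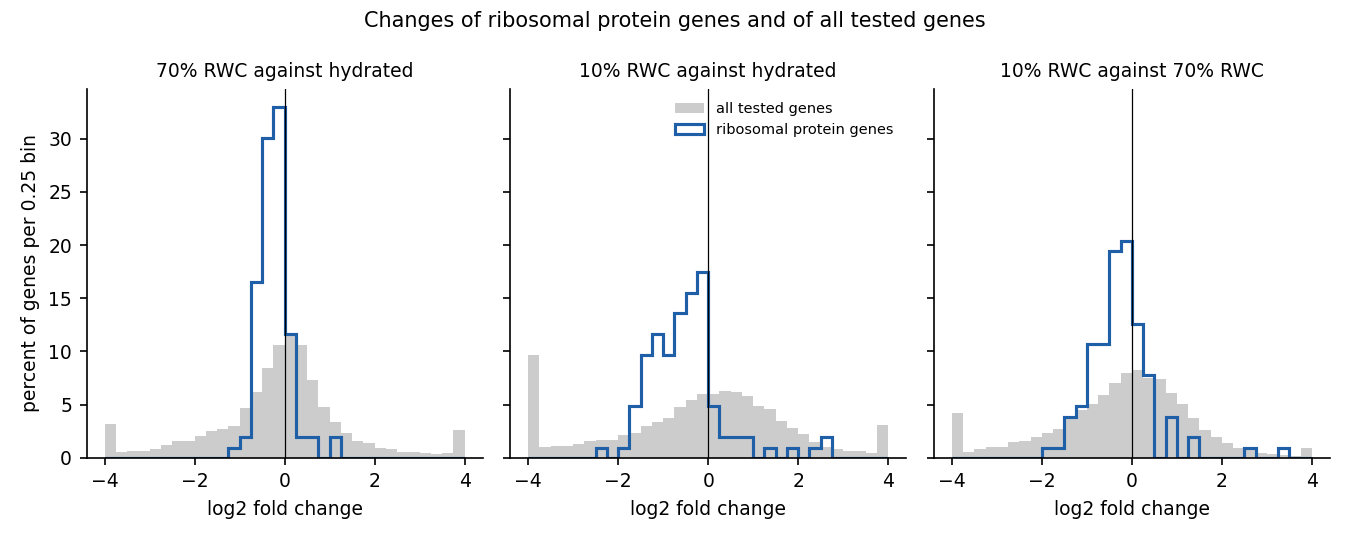
Share of genes (percent per bin of 0.25) against log2 fold change in the 3 comparisons, for all 14585 tested genes (grey) and the 103 tested ribosomal protein genes (blue outline); values beyond 4 are stacked in the end bins. The blue outline is narrower than the grey one at 70% RWC and lies mostly below 0 in each comparison, with medians of -0.25, -0.56 and -0.29.

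The path through both steps differed between genes. Lower at 70% RWC and lower again at 10% were 28 genes (27.2%, against 16.5% of all tested genes), and 26 were not called at first and lower in the second step (25.2% against 7.89%). A further 15 fell by 70% RWC and were not called afterwards (14.6% against 9.02%), and 8 fell and then rose (7.77% against 10.4%). Rising in the second step alone were 5 genes (4.85% against 13.3%), rising in both were 2 (1.94% against 13.4%), and rising at first alone were 2 (1.94% against 5.93%). A further 3 rose and then fell (2.91% against 15.2%), while 14 were called in neither step (13.6% against 8.3%). These comparisons share the libraries at 70% RWC, so a high value there moves a gene down in the second step.

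**Figure D3:**
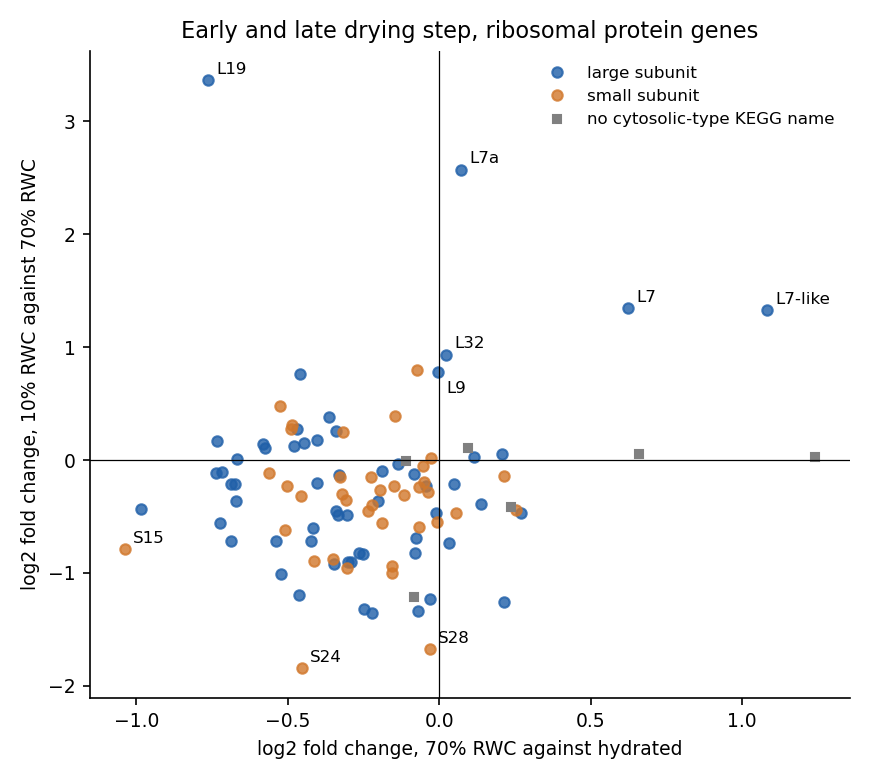
Log2 fold change of each tested ribosomal protein gene from hydrated to 70% RWC (horizontal axis) and from 70% to 10% RWC (vertical axis), for large subunit (blue), small subunit (orange) and genes without a cytosolic-type KEGG name (grey squares). Most points lie left of and below 0; L19, L7a and L7 copies stand highest on the vertical axis, at 3.36, 2.57 and 1.34.

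Of 59 tested large subunit genes, 37 (62.7%) were lower and 4 (6.78%) higher at 70% RWC, where 35.9% and 34.6% of all tested genes were. Of 38 small subunit genes, 14 were lower (36.8%, near that background) and 1 higher (2.63%). At 10% RWC, 43 large subunit genes (72.9%) were lower and 7 (11.9%) higher, and 27 small subunit genes (71.1%) were lower and 2 (5.26%) higher, beside 41.5% and 42.4% of all tested genes. The difference between the subunits was not tested. The median log2 fold changes were -0.33 and -0.66 for the large and -0.21 and -0.52 for the small subunit. The ratio of the summed CPM of the large to that of the small subunit was 1.57 ± 0.0221 in hydrated leaves, 1.56 ± 0.0103 at 70% RWC and 1.79 ± 0.0282 at 10% RWC (SD, n = 3). The 9 of these genes that were higher at 10% RWC were then set aside, a choice that used their values. With the 53 large and 36 small subunit genes left, the ratio was 1.49 ± 0.0186, 1.46 ± 0.0116 and 1.47 ± 0.00452 (SD, n = 3).

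Levels between genes are given as CPM per kilobase of coding length (RPKM). Over the tested genes, the mean RPKM ran from 0.961 to 539 in hydrated leaves, with a median over genes of 139. At 10% RWC the range was 3.23 to 431 and the median 81.2. The highest mean over all libraries was that of the L6 gene Bhs10_003V1.1, a large subunit protein, with 499 ± 53.8, 471 ± 28.9 and 431 ± 16.2 RPKM (SD, n = 3) in hydrated, 70% and 10% RWC leaves. Next was the S8 gene Bhs1942_002V1.1 of the small subunit, with 539 ± 28.4, 393 ± 10.97 and 316 ± 24.8 RPKM. The replicates of S8 and L6 overlapped in hydrated leaves, and in both dried states every replicate of S8 was below every replicate of L6.

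Among the other genes of highest RPKM, SA (Bhs539_015V1.1), a small subunit protein also known as a laminin receptor homolog in animals, fell from 405 ± 18.7 to 324 ± 31.3 and 264 ± 17.6 RPKM. L34 (Bhs1022_039V1.1) fell from 491 ± 37.5 to 305 ± 43.0 and stood at 263 ± 12.9 RPKM, where the second step (log2 fold change -0.21, SE 0.09) was not called without hydrated replicate 3, 70% RWC replicate 3, 10% RWC replicate 1 or 10% RWC replicate 3 (adjusted p 0.0549, 0.0684, 0.131 and 0.0843, edgeR). L13a (Bhs132_010V1.1), which in mammals also acts in translational control outside the ribosome, was at 394 ± 10.6, 285 ± 11.4 and 346 ± 20.8 RPKM, falling and then rising. The order of the levels changed little at first and more later: across the 103 genes, which are not independent replicates, r of log2(RPKM + 1) was 0.98 between hydrated and 70% RWC leaves and 0.87 between hydrated and 10% RWC leaves.

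The small subunit held the 3 largest decreases at 10% RWC. S24 (Bhs1009_010V1.1, scaffold 1009, 186361 to 188046, plus strand), whose human counterpart is needed for processing of ribosomal RNA, stood at 97.6, 71.2 and 80.0 CPM in hydrated leaves, 66.6, 58.7 and 56.6 CPM at 70% RWC and 18.6, 16.0 and 15.9 CPM at 10% RWC. No replicate of one state reached those of the next. Its log2 fold change was -0.45 (SE 0.11, adjusted p = 0.00108) at 70% RWC and -2.30 (SE 0.12, adjusted p = 1.25e-11) at 10% RWC by edgeR's quasi-likelihood test, which puts the desiccated level at 0.203 of the hydrated one.

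S15 (Bhs13_133V1.1, scaffold 13, 1014236 to 1015372, minus strand), a protein of the head of the small subunit, fell most at 70% RWC. Its values were 93.9, 100.05 and 91.6 CPM in hydrated leaves, 46.7, 44.5 and 47.9 CPM at 70% RWC and 26.9, 28.7 and 24.99 CPM at 10% RWC. The states were far apart, with log2 fold changes of -1.04 (SE 0.08, adjusted p = 1.38e-09) and -1.82 (SE 0.08, adjusted p = 6.11e-13) against hydrated leaves. Another S15 copy, Bhs2733_002V1.1, was at 116, 107 and 86.3 CPM on average, and its decrease passed the test at 10% RWC alone. S28 (Bhs350_003V1.1), a protein near the exit of the message channel, was flat at first and then fell: 80.5, 70.5 and 74.7 CPM, then 77.3, 76.8 and 66.9 CPM, then 22.9, 21.5 and 24.7 CPM. The hydrated and 70% RWC replicates overlapped, and the 10% RWC replicates lay far below both (log2 fold change from 70% RWC -1.68, SE 0.09, adjusted p = 2.38e-11).

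In the large subunit, L27 (Bhs700_060V1.1, 2054 reads in all libraries) fell from 47.2 ± 6.59 to 34.2 ± 5.34 and 14.9 ± 3.04 CPM (SD, n = 3). A gene with the L27 KEGG name but another description, Bhs4521_002V1.1, lies outside the group and had 6228 reads. L38 (Bhs2449_008V1.1), known in mouse for its part in the translation of Hox messages, was at 32.4 ± 1.51, 27.3 ± 2.32 and 10.9 ± 0.736 CPM. L30 (Bhs649_083V1.1), which in yeast regulates the splicing of its own transcript, was level between hydrated (47.1 ± 2.56 CPM) and 70% RWC leaves (46.1 ± 4.52 CPM, not called) and fell to 19.7 ± 1.95 CPM. L23A (Bhs95_025V1.1), a protein at the rim of the tunnel through which the new chain leaves, took the same course with 174, 166 and 163 CPM in hydrated leaves, 157, 164 and 159 CPM at 70% RWC and 60.5, 73.1 and 56.5 CPM at 10% RWC. Its replicates at 10% RWC were all below those of the other states (log2 fold change from 70% RWC -1.34, SE 0.08, adjusted p = 8.83e-11, edgeR). The decrease of L38 at 70% RWC (log2 fold change -0.25) was not called without hydrated replicate 2, hydrated replicate 3, 70% RWC replicate 2 or 70% RWC replicate 3 (adjusted p 0.112, 0.0737, 0.161 and 0.0976).

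Early decreases were led in the large subunit by L12, a protein at the base of the stalk. All 3 of its copies fell at 70% RWC: Bhs189_039V1.1 from 35.9 ± 2.16 to 18.2 ± 2.52 CPM, Bhs2932_012V1.1 from 71.1 ± 8.87 to 42.7 ± 5.09 CPM, and Bhs160_025V1.1 from 40.1 ± 5.79 to 24.8 ± 1.22 CPM. By 10% RWC they stood at 13.4 ± 0.507, 39.5 ± 4.22 and 15.1 ± 2.63 CPM. The second copy was not called in the later step (log2 fold change -0.11), but was without 70% RWC replicate 1 (-0.32, adjusted p = 0.0225, edgeR). L8 (Bhs12327_002V1.1) and L4 (Bhs160_015V1.1), whose decreases were also among the largest at 70% RWC (log2 fold changes -0.73 and -0.72), were not called in the later step. L8 was called higher there without 10% RWC replicate 1 (0.29, adjusted p = 0.0450), and L4 lower without 70% RWC replicate 1 (-0.19, adjusted p = 0.0269). L26 (Bhs1115_002V1.1, described as L24) fell in both, from 28.8 ± 3.74 to 17.4 ± 2.16 and 11.9 ± 3.06 CPM.

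The stalk of the large subunit, formed by the acidic P proteins, recruits the elongation factors. Its base protein P0 (Bhs4929_001V1.1) was at 371, 338 and 379 CPM in hydrated leaves, 289.8, 265 and 261 CPM at 70% RWC and 187, 176 and 176 CPM at 10% RWC. The 3 states were apart, and the desiccated level was 0.494 of the hydrated one (log2 fold change -1.02, SE 0.07, adjusted p = 1.35e-10). P1 (Bhs98_061V1.1) was at 92.2, 112 and 119 CPM, then 89.0, 85.6 and 81.2 CPM, then 59.9, 58.3 and 64.7 CPM. It fell in both steps too (log2 fold change at 10% RWC -0.82, SE 0.09). No gene of P2, P3 or S27a was among the 104. Outside the group, Bhs33_055V1.1, Bhs33_060V1.1 and Bhs4598_002V1.1 have the S27a KEGG name (4681, 6758 and 1672 reads in all libraries). Another gene outside it, Bhs119_071V1.1 (1716 reads), has that of P1.

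L40 is made as a fusion with ubiquitin, which is cut off to leave both proteins. Its copy Bhs387_001V1.1 was at 95.1, 96.2 and 89.7 CPM in hydrated leaves, 82.3, 83.6 and 74.97 CPM at 70% RWC and 27.96, 32.4 and 33.9 CPM at 10% RWC. The copy Bhs1588_005V1.1 was at 37.4 ± 5.88, 29.4 ± 2.71 and 15.6 ± 3.38 CPM (SD, n = 3). At 10% RWC they stood at 0.335 and 0.416 of the hydrated level (log2 fold changes -1.58 and -1.27). At 70% RWC their decreases were not called when certain libraries were left out. That of the first was lost without hydrated replicate 2 (adjusted p = 0.0583, edgeR) or 70% RWC replicate 3 (0.105). That of the second was lost without hydrated replicate 1 (0.177), 70% RWC replicate 2 (0.105) or 70% RWC replicate 3 (0.116).

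**Figure D4:**
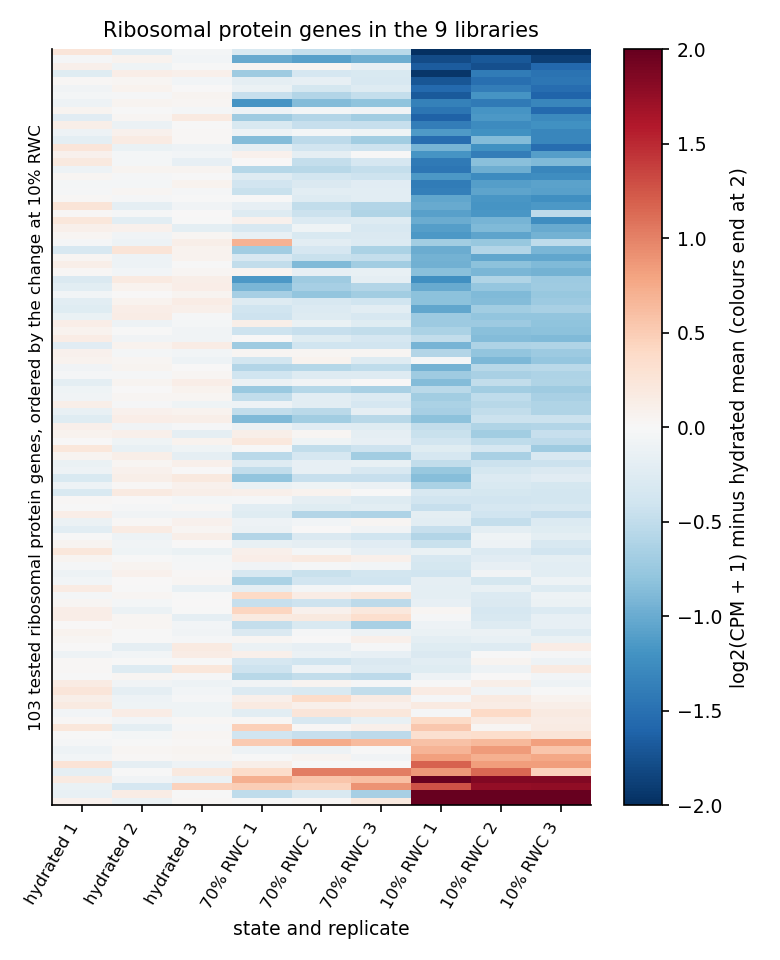
Log2(CPM + 1) of the 103 tested ribosomal protein genes (rows, ordered by the fitted change at 10% RWC) in the 9 libraries (columns), minus the gene's hydrated mean; blue is lower and red higher, with colours ending at 2. Most rows are bluer at 10% RWC than in hydrated leaves, but 28 genes were called lower in both steps, 26 in the second alone and 15 in the first alone. A small set at the foot of the plot turns red at 10% RWC.

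A small set rose against this course, mostly at 10% RWC. The 11 genes higher there than in hydrated leaves summed to 455 ± 15.6 CPM in hydrated leaves, 469.6 ± 11.8 CPM at 70% RWC and 1009 ± 62.4 CPM at 10% RWC, which was 5.14%, 6.29% and 15.3% of the reads of all ribosomal protein genes. The other 93 genes went from 8410 ± 101 to 6998 ± 102 and 5567 ± 69.4 CPM. These sums describe the set, since its members were picked by their values at 10% RWC.

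The largest increase at 10% RWC was that of an L7a copy. L7a belongs to a family of proteins that bind kinked turns of RNA. Bhs269_015V1.1 (scaffold 269, 279222 to 280361, minus strand) was at 29.9, 25.8 and 28.7 CPM in hydrated leaves, 27.8, 28.7 and 32.3 CPM at 70% RWC and 181, 168 and 179 CPM at 10% RWC. The hydrated and 70% RWC replicates overlapped and the desiccated ones stood 6.25-fold above the hydrated level (log2 fold change 2.64, SE 0.08, adjusted p = 3.19e-15, edgeR). Its share of the reads of the 3 L7a genes was 7.97% ± 0.215 in hydrated and 32.7% ± 0.904 in desiccated leaves (SD, n = 3). A further 4 genes have the L7a family KEGG name but another description, and among all 7 the share was 4.38% ± 0.116 and 19.2% ± 0.777. The other L7a copies of the group fell at 70% RWC and rose afterwards: Bhs1140_039V1.1 was at 146 ± 4.08, 106 ± 4.69 and 181 ± 5.88 CPM, and Bhs2274_003V1.1 at 179 ± 27.3, 139 ± 10.8 and 181 ± 15.2 CPM.

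For L7, another large subunit protein, the copy Bhs33_044V1.1 (scaffold 33, 303008 to 305534, plus strand) rose in both steps. Its values were 90.3, 76.1 and 73.2 CPM in hydrated leaves, 131, 117 and 121 CPM at 70% RWC and 359, 289 and 289 CPM at 10% RWC. The 3 states did not overlap (log2 fold changes against hydrated leaves 0.62, SE 0.10, adjusted p = 3.13e-05, and 1.97, SE 0.10, adjusted p = 1.32e-11). Its share of the reads of the 4 L7 genes grew from 18.7% ± 0.911 to 27.2% ± 0.749 and 52.0% ± 2.96 (SD, n = 3). The copy with most reads in hydrated leaves, Bhs176_007V1.1, was at 211 ± 7.60, 233 ± 5.77 and 178 ± 7.57 CPM. Its small increase at 70% RWC (log2 fold change 0.14, adjusted p = 0.0489) was not called without hydrated replicate 2 or 3, without 70% RWC replicate 1, 2 or 3, or without 10% RWC replicate 2 or 3 (adjusted p from 0.0543 to 0.147). The third copy, Bhs334_072V1.1, was at 133.3 ± 11.2, 95.6 ± 14.3 and 104 ± 10.2 CPM and was lower than in hydrated leaves in both dried states. The fourth, Bhs2912_005V1.1, was at 0.845 ± 0.552, 1.78 ± 0.497 and 4.50 ± 1.02 CPM; its increase at 70% RWC was not called without hydrated replicate 1 (adjusted p = 0.111), hydrated replicate 2 (0.147) or 70% RWC replicate 3 (0.152), and its KEGG match is weak, with an e-value of 2e-11.

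L9 sits near the base of the stalk. Bhs2042_007V1.1 was at 65.9, 69.3 and 70.0 CPM in hydrated leaves, 67.7, 71.3 and 65.4 CPM at 70% RWC and 122, 112 and 117 CPM at 10% RWC. The desiccated replicates alone were high (log2 fold change 0.77, SE 0.07, adjusted p = 7.07e-09, edgeR). All 3 other L9 genes were lower at 10% RWC than in hydrated leaves. Of these, Bhs13554_001V1.1 fell from 77.5 ± 5.04 to 53.3 ± 1.72 and 32.5 ± 5.70 CPM, and Bhs13554_002V1.1 from 17.1 ± 1.98 to 8.09 ± 0.696 CPM at 10% RWC. Those models lie next to each other on the same strand of scaffold 13554 (2211 to 2618 and 3288 to 3639), with coding lengths of 408 and 195 bases. Whether they are pieces of the same gene was not tested. Over the family the share of Bhs2042_007V1.1 went from 31.4% ± 0.416 to 57.8% ± 4.36, while the family's summed level went from 218 ± 4.16 to 203 ± 7.36 CPM.

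L32 (Bhs3252_010V1.1) stood at 48.8, 35.2 and 37.5 CPM in hydrated leaves, 43.7, 39.96 and 40.2 CPM at 70% RWC and 91.7, 72.1 and 72.7 CPM at 10% RWC. Replicate 1 was the highest in each state, and the 10% RWC replicates lay above all others (log2 fold change 0.96, SE 0.12, adjusted p = 1.88e-06). S7 (Bhs4515_005V1.1), whose human counterpart acts in processing of ribosomal RNA, was at 17.1, 18.9 and 19.1 CPM, then 17.1, 17.0 and 18.3 CPM, then 29.96, 33.8 and 27.4 CPM, again with the desiccated replicates alone set apart (log2 fold change 0.73, SE 0.11). The L19 copy Bhs394_051V1.1, of a protein that bridges the subunits, rose from 2.23 ± 0.320 and 1.30 ± 0.292 to 13.5 ± 0.299 CPM (373 reads in all libraries). The other L19 copy of the group, Bhs983_002V1.1, was at 138 ± 7.78 and 141 ± 0.179 and fell to 84.7 ± 6.57 CPM. A further pair of genes has the L19 KEGG name but another description, and among all 4 the share of the rising copy was 0.451% ± 0.0845 in hydrated and 3.66% ± 0.159 in desiccated leaves. The decrease of the minor copy at 70% RWC was not called without hydrated replicate 2, hydrated replicate 3, 70% RWC replicate 1 or 70% RWC replicate 3 (adjusted p 0.117, 0.057, 0.0757 and 0.128).

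Copies of the same protein were called in opposite directions in 2 of the 31 families with several copies at 70% RWC (L7 and L11), in 3 at 10% RWC (L7, L9 and L19), and in 7 from 70% to 10% RWC (L7, L9, L19, S3, S4, S5 and S7). All copies were lower in 8, 15 and 7 families, and all were higher in 0, 0 and 1 (L7a in the last step). The median spread of log2 fold changes within a family was 0.30, 0.76 and 0.48. In the L11 family, Bhs1592_005V1.1 was at 26.0 ± 0.716, 31.4 ± 3.07 and 22.7 ± 1.43 CPM while Bhs238_026V1.1 fell from 43.7 ± 1.68 to 30.4 ± 1.45 and 15.1 ± 3.09 CPM. The increase of the former at 70% RWC was not called without hydrated replicate 1, hydrated replicate 3 or 70% RWC replicate 1 (adjusted p 0.0507, 0.0543 and 0.137).

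**Figure D5:**
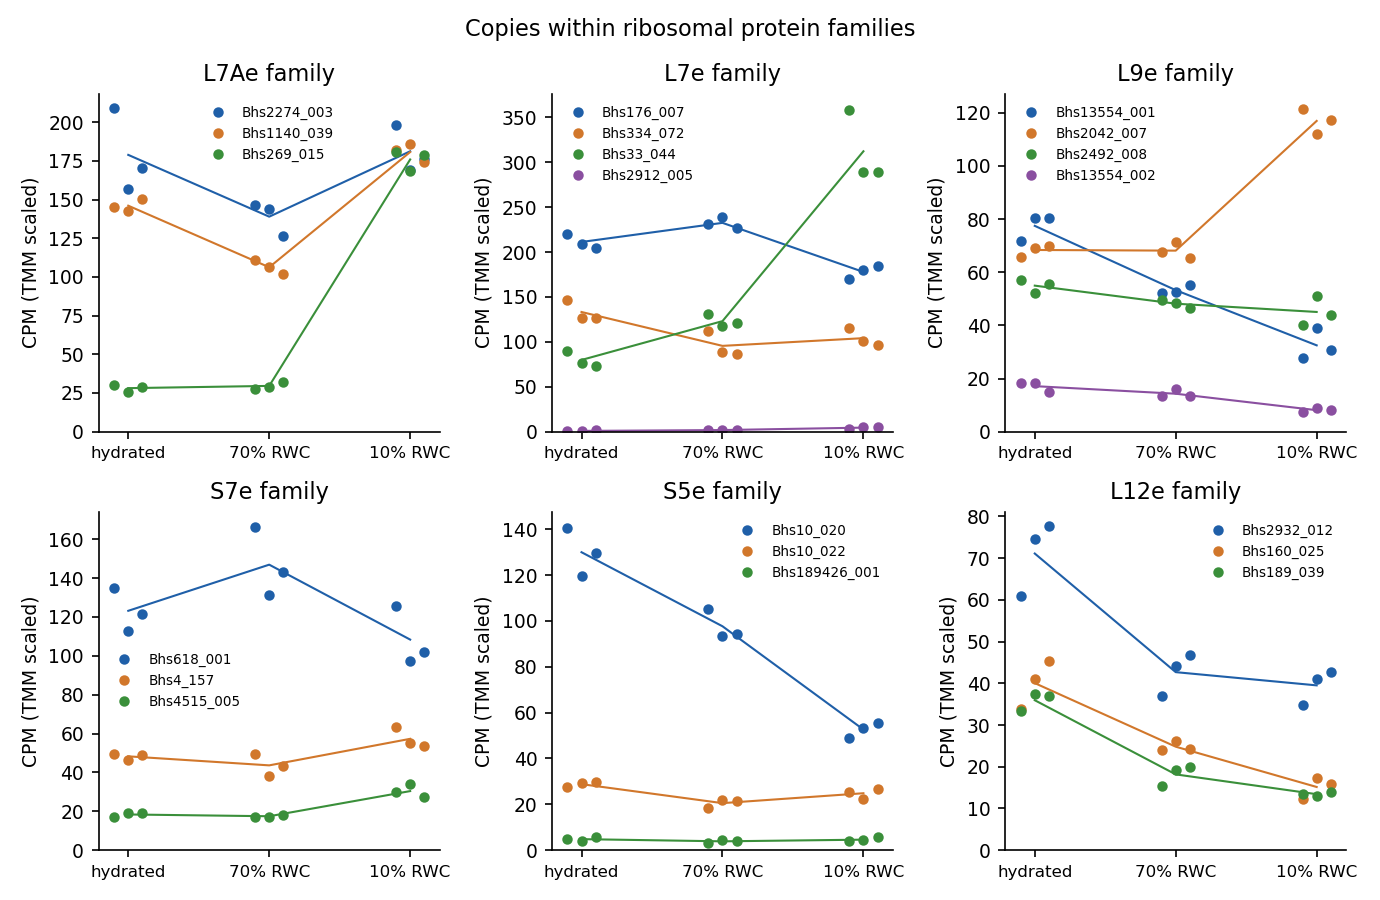
CPM of each gene copy of the group in 6 ribosomal protein families by water state, without genes outside the group that have the same KEGG name. Points are the 9 libraries, lines join state means, and every panel starts at 0. The copies Bhs269_015V1.1 (L7a), Bhs33_044V1.1 (L7) and Bhs2042_007V1.1 (L9) rise at 10% RWC, to 176, 312 and 117 CPM, while the 3 L12 copies all lie lower in both dried states than in hydrated leaves.

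Among small subunit families, copies of S3, S4, S5 and S7 were called in opposite directions in the second step. S3, at the entry of the message channel, has copies of nearly equal level: Bhs3720_003V1.1 was at 245 ± 5.01, 170 ± 3.04 and 237 ± 8.53 CPM, and Bhs115_012V1.1 at 223 ± 6.73, 215 ± 4.21 and 188 ± 12.2 CPM. The former was therefore the copy with more reads in hydrated and desiccated leaves and the latter at 70% RWC (55.8% ± 0.154 of the family). The second-step decrease of Bhs115_012V1.1 was not called without 10% RWC replicate 1 (adjusted p = 0.054, edgeR). In S4, Bhs107_095V1.1 fell from 225 ± 20.1 to 134 ± 21.4 CPM at 10% RWC, and Bhs4699_006V1.1 dipped from 33.8 ± 1.31 to 24.1 ± 3.01 and stood at 29.9 ± 1.69 CPM. That later rise was not called without 70% RWC replicate 1 (adjusted p = 0.162) or 70% RWC replicate 3 (0.0867).

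A gene with the S5 KEGG name but another description, Bhs387_028V1.1, lies outside the group and had 11740 reads in all libraries. Inside the group, the S5 copies Bhs10_020V1.1 (6019 reads) and Bhs10_022V1.1 (1597 reads) lie 2 gene models apart. Both are on the minus strand of scaffold 10 (87146 to 88628 and 96179 to 97114). The first fell from 129.9 ± 10.5 to 97.7 ± 6.399 and 52.6 ± 3.40 CPM. The second dipped from 28.8 ± 0.959 to 20.5 ± 1.99 CPM and then stood at 24.8 ± 2.19 CPM, a rise (log2 fold change 0.28) that was not called without 70% RWC replicate 1 (0.09, adjusted p = 0.526), 10% RWC replicate 1 (adjusted p = 0.0642) or 10% RWC replicate 3 (0.121). In S7, Bhs618_001V1.1 was at 123.1 ± 11.03, 147 ± 18.0 and 108 ± 15.3 CPM, an early increase that was not called without hydrated replicate 2, hydrated replicate 3, 70% RWC replicate 1 or 70% RWC replicate 3 (adjusted p 0.157, 0.108, 0.212 and 0.0625). The third S7 copy, Bhs4_157V1.1, was at 48.3 ± 1.62, 43.6 ± 5.46 and 57.3 ± 5.46 CPM. Its increase over hydrated leaves (log2 fold change 0.25) was not called without hydrated replicate 2 (edgeR adjusted p = 0.0824), 70% RWC replicate 1 (0.168) or 10% RWC replicate 1 (0.117). Other ways of scaling and testing also lost this call, as given at the end of the report.

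Summed over its copies, a family's mean CPM was below the hydrated level in 50 of 54 families at 70% RWC and in 50 of 54 at 10% RWC. The exceptions were L7, L19, L32 and S7 at 70% RWC and L7, L7a, L32 and S7 at 10% RWC. These counts compare means without a test or a limit on size, and L10a (0.998 of hydrated at 70% RWC) and S18 (0.996) count as below. At 70% RWC, L19 (140 ± 7.52 to 142 ± 0.456 CPM) and L32 (40.5 ± 7.27 to 41.3 ± 2.08 CPM) lay within the spread of the hydrated replicates. The S7 sums were 190 ± 11.5, 208 ± 23.4 and 196 ± 20.3 CPM, with overlapping SD ranges. These sums hold the genes of the group alone: with every gene of the KEGG name, the L19 sum was lower at 70% RWC (438 ± 7.25 CPM) than in hydrated leaves (496 ± 22.5 CPM), the L32 sum was lower in both dried states, and the L7a sum went from 642 ± 43.8 to 635 ± 26.6 and 919 ± 30.6 CPM. The copy with most reads was another than in hydrated leaves in 2 families at 70% RWC (L9 and S3) and in 4 at 10% RWC (L3, L7, L9 and L23A). The deposited files count uniquely aligned reads alone, so the level of a copy depends on how unlike its relatives it is.

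The 6 genes without a cytosolic-type KEGG name are few: 0 were lower and 2 higher at 70% RWC, and 1 was lower and 2 higher at 10% RWC. The 2 higher genes are 33.3% of them, near the 34.6% of all tested genes at 70% RWC and below the 42.4% at 10% RWC. The higher ones were Bhs4693_003V1.1, described as L34, with 21.5 ± 0.284, 33.9 ± 2.79 and 35.2 ± 3.04 CPM (SD, n = 3), and the L2 gene Bhs576_011V1.1, whose bacterial-type name is that of organelle ribosomes, with 1.31, 3.10 and 3.14 CPM on average. Whether their proteins sit in the cytosolic ribosome is not given by the files. The lower one was Bhs80_006V1.1, described as L23 family, with 23.5, 22.2 and 9.52 CPM on average.

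The rule passed over some genes whose description does not name a ribosomal protein. Among genes outside the 104, 58 carried a KEGG name of a cytosolic ribosomal protein with an e-value of at most 1e-20, and 55 of these did not have the word ribosomal in their description. Some of the 58 are described as other proteins: acid phosphatase (Bhs18719_001V1.1, Bhs2169_012V1.1), polygalacturonase-like (Bhs297_004V1.1) and a ribosome biogenesis protein (Bhs7_029V1.1). Of all 58 genes, 33 (56.9%) were lower and 4 (6.90%) higher at 70% RWC, beside 35.9% and 34.6% of all tested genes. At 10% RWC 40 (69.0%) were lower and 7 (12.1%) higher, beside 41.5% and 42.4%. The median log2 fold changes were -0.29 and -0.58, with a range from -3.83 to 5.50 at 10% RWC. In the L32 family, the passed-over gene Bhs107_064V1.1 fell from 135 ± 5.17 to 84.9 ± 6.95 CPM at 10% RWC. The family's sum with it was 176 ± 3.92 and 164 ± 7.05 CPM. With that gene counted, the summed L32 level was lower, not higher, at 10% RWC.

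At 10% RWC, the shorter genes of the group had fallen more than the longer ones. Among the tested genes with a coding length under their median of 501 bases, 39 of 51 were lower and 1 higher at 10% RWC, with a median log2 fold change of -0.80. Among those of 501 bases or more, 32 of 52 were lower and 10 higher, with a median of -0.34. Of all 1980 tested genes under 501 bases, 794 were lower and 719 higher there, with a median of -0.07. At 70% RWC, 27 of the 51 shorter genes of the group were lower and 0 higher. Of the 52 longer ones, 24 were lower and 7 higher. Of all 1980 tested genes under 501 bases, 620 were lower and 528 higher at 70% RWC. Over tested genes of any length, 35.9% were lower and 34.6% higher there. No count was made over all genes of 501 bases or more, at 70% or 10% RWC. Over the group, r of log2 fold change with log2 coding length was 0.22 at 70% RWC and 0.34 at 10% RWC. Without the genes higher at 10% RWC it was 0.03 and 0.28. The part of length in the result was not tested. The median percent of a gene covered by reads was 97.5, 97.4 and 96.4 for these genes in hydrated, 70% and 10% RWC leaves.

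Genes that build ribosomes were mostly higher in desiccated leaves. Of 24 genes of ribosome assembly (nucleolar and pre-ribosome processing proteins), 8 were higher and 7 lower at 70% RWC (33.3% and 29.2%), near the 34.6% and 35.9% of all tested genes. At 10% RWC 18 were higher and 4 lower (75% and 16.7%, beside 42.4% and 41.5%), with a median log2 fold change of 0.86. WDR12 (Bhs1459_003V1.1), which acts in maturation of the large subunit, rose from 17.0 ± 0.630 to 86.8 ± 1.56 CPM, and a fibrillarin gene (Bhs519_004V1.1), the methylase of ribosomal RNA, from 9.203 ± 1.65 to 35.8 ± 3.48 CPM at 10% RWC. A further fibrillarin gene (Bhs685_021V1.1) fell from 23.98 ± 2.54 to 16.2 ± 0.239 CPM. All 4 genes of RNA polymerase I, which makes the ribosomal RNA, were higher at 10% RWC, led by RPA1 (Bhs68_028V1.1) with 40.6 ± 3.32, 73.3 ± 3.22 and 183 ± 8.76 CPM.

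Of 41 genes named as initiation factors, 20 were higher and 11 lower at 70% RWC (48.8% and 26.8%) and 28 were higher and 8 lower at 10% RWC (68.3% and 19.5%). The same shares of all tested genes were 34.6% and 35.9% at 70% RWC and 42.4% and 41.5% at 10% RWC. Of 25 named as elongation or release factors, a list that holds factors of the chloroplast too, 9 were higher and 8 lower at 70% RWC (36% and 32%, near the background). At 10% RWC 15 were higher and 9 lower (60% and 36%). Of 40 genes of organelle ribosomal proteins, 3 were higher and 23 lower at 70% RWC (7.5% and 57.5%) and 10 higher and 25 lower at 10% RWC (25% and 62.5%), and their summed level went from 2738 ± 21.0 to 1375 ± 11.1 and 1204 ± 4.27 CPM.

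Markers of dividing cells (PCNA, cyclins, MCM proteins, ribonucleotide reductase and histones H3 and H4) also moved. Of 42 genes, 23 were lower and 7 higher at 70% RWC (54.8% and 16.7%, beside 35.9% and 34.6% of all tested genes) and 25 lower and 9 higher at 10% RWC (59.5% and 21.4%, beside 41.5% and 42.4%). Their summed level was 574 to 595 CPM in hydrated leaves, 472 to 488 CPM at 70% RWC and 593 to 617 CPM at 10% RWC, and 1 of them was at 0 reads at 10% RWC. The 3 guard cell markers summed to 34.8 to 40.2, 14.4 to 15.9 and 6.66 to 8.51 CPM. The part of these cells in the decrease of ribosomal protein genes was not tested.

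The authors' deposited table of their own tests against hydrated leaves calls 4 of the 104 genes higher and 45 lower at 70% RWC and 10 higher and 79 lower at 10% RWC. Set beside edgeR's quasi-likelihood test, 49 and 80 genes were called in the same direction by both, 0 in opposite directions, 9 and 2 by edgeR alone, and 0 and 8 by the authors' deposited table alone. The remaining gene, the L4 copy Bhs695_011V1.1, was not tested with edgeR. The authors' deposited table calls it higher at 10% RWC and lists only zeros for it at 70% RWC. The share of all genes called in that table was not counted, while edgeR called 70.5% and 83.9% of all tested genes. Without that share, the agreement on 49 and 80 genes cannot be set against a background. The median log2 fold changes of the group were -0.26 and -0.71 in that table, beside -0.25 and -0.56 by edgeR.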

How the data were processed

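Leaf RNA of 3 water states was sequenced in 9 libraries, 3 per state. The authors deposited, per the file headers, a count per gene of uniquely aligned reads and the percent of the gene covered; a gene missing from a file was set to 0. Aligner, assembly version and use of strand are not given in the sources used here. The authors' deposited table of log2 fold changes and adjusted p-values was used for the last comparison of the report alone.

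Counts were scaled by TMM to a common library size (CPM) and tested over all 14585 genes kept by edgeR's filter on low counts, with all 9 libraries in 1 fit and state as the factor (edgeR 4.0.16, limma 3.58.1, R 4.3.3; quasi-likelihood test, Benjamini-Hochberg adjustment, threshold 0.05). Fold changes are those of edgeR's quasi-likelihood fit, with its default prior count. The SE beside a log2 fold change is its absolute value divided by the square root of the test's F statistic. A prior count of 2 was used for the log2 CPM behind the correlations between libraries. RPKM is the scaled CPM per kilobase of coding length. DESeq2 1.42.0 and limma-voom were alternatives. The edgeR fit was run on simulated counts with known changes. The other steps were not tested in this way.

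Genes named with values were the 6 largest called increases and decreases per comparison (at least 20 CPM, groups apart), the 6 of highest RPKM, stalk and ubiquitin-fusion proteins, copies called in opposite directions, and genes that turned between steps. Further copies of those families, the genes without a cytosolic-type name and the examples from other lists were chosen after their values were seen. The members and lists were chosen with earlier results of these data known. Every sample column was used.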

Additional observations from a re-analysis of the deposited data

How the results depend on the processing

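The number of genes called higher at 70% RWC changed with several settings: 7 in the fit reported, 4 with RLE scaling, 3 with total counts, 4 with replicates 2 and 3 summed, 3 with DESeq2, 4 at a change of at least 1.5-fold, and 4 to 8 when 1 library was left out. With total counts the median at 70% RWC was -0.35, while the median of all tested genes moved by -0.10. At a change of at least 1.5-fold, 12 genes were lower at 70% RWC against 51 with no such limit, and 8 were higher and 30 lower from 70% to 10% RWC. The median from 70% to 10% RWC ran from -0.43 to -0.26 when 1 library was left out. With the further genes of a cytosolic-type KEGG name, an alternative chosen after seeing the data, 11 genes were higher and 84 lower at 70% RWC, 18 and 111 at 10% RWC, and 25 and 87 from 70% to 10% RWC, and the summed levels were 14600, 11987 and 10439 CPM. The summed levels were 9145 (hydrated) and 6403 CPM (10% RWC) with RLE scaling, 9128, 7169 and 6657 CPM with total counts, 7725, 6435 and 5895 CPM for genes described as 40S or 60S, and 6485 CPM at 10% RWC for genes with a cytosolic-type name. The causes were not tested, beyond the larger or smaller lists. Of 114 calls of named genes, 97 were kept under all 18 alternatives, 17 were lost under some and 0 reversed. Some calls lost on leaving out a library were also lost with another scaling or test. Both RLE scaling and DESeq2 lost the increases of Bhs176_007V1.1, Bhs618_001V1.1 and Bhs1592_005V1.1 at 70% RWC. Both also lost the late rise of Bhs10_022V1.1 and the increase of Bhs4_157V1.1 at 10% RWC. DESeq2 also lost the changes of Bhs2912_005V1.1 and Bhs394_051V1.1 at 70% RWC. Same-numbered libraries correlated at 0.0694 to 0.293, not all above 0.1, so the numbers were not taken as pairs; with a replicate block 9 genes were higher and 60 lower at 70% RWC, 13 and 77 at 10% RWC, and 17 and 60 from 70% to 10% RWC. Not every library correlated best with its own number. The shares of all tested genes called under the settings of this section were not counted. The counts here therefore show only how the calls of the group moved.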
